A study of Mus musculus with 24 samples.

Results

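The Slc25 genes encode the mitochondrial carrier family, and 46 of them were followed in liver RNA of 24 mice, 1 library per mouse. Members were the protein-coding genes named Slc25a followed by a number in any of the deposited tables, out of 24137 genes in all, of which 17879 were protein-coding. The mice fell into 5 groups. HF_TZD_KO mice (n = 5) carried a knockout of PPARγ restricted to hepatocytes and received rosiglitazone maleate, a thiazolidinedione (TZD) that activates PPARγ, for the last 8 weeks of an HFCF (high fat) diet. HF_TZD_C mice (n = 5) were control mice given the same drug and diet, HF_KO mice (n = 5) were knockouts on the HFCF diet without the drug, and HF_C mice (n = 5) were controls on that diet alone. LF_C mice (n = 4) were control mice on an LFCF (low fat) diet. The HFCF diet lasted 34 weeks and the knockout was induced after 24 weeks, so that it had been in place for 10 weeks. The labels call the HFCF livers steatohepatitis and the LF_C livers healthy. Strain, age, the Cre driver and the drug dose are not given in the sources used here. All RNA came from whole liver, so fewer cells of a type and less RNA per cell cannot be told apart.

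Carriers of this family sit almost all in the inner mitochondrial membrane, where each moves a set of small molecules between the cytosol and the matrix. They exchange ADP for ATP, import phosphate, export citrate for fatty acid synthesis, bring in long-chain acylcarnitines for oxidation, move the amino acids of the urea cycle, and supply the matrix with nucleotides, coenzyme A, NAD+, folate, glutathione and iron. The liver relies on them for gluconeogenesis, ureagenesis, lipogenesis and fatty acid oxidation, processes that all cross the mitochondrial membrane. Each carrier is encoded by its own nuclear gene and imported after translation.

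Before the members were compared, the labels were checked against Pparg itself. Pparg stood at 31.7 to 62 CPM (counts scaled to library size) in HF_TZD_KO, 24.5 to 30.6 in HF_TZD_C, 57.7 to 70.2 in HF_KO, 28.3 to 35.5 in HF_C and 10 to 18.4 in LF_C livers. It was thus higher, not lower, in the libraries labelled knockout, by 0.79 on the log2 scale in HF_TZD_KO against HF_TZD_C (SE 0.16, adjusted p = 0.00420) and by 0.99 in HF_KO against HF_C (SE 0.08, adjusted p = 4.5e-05). The gene count does not show which exons were deleted, so it does not check the label, and the direction of every knockout comparison rests on the labels. Hepatocyte markers (6 of 6 in the files) were present in every library, as the tissue label says. Of the adipocyte markers, Adipoq was at 0 in 22 of 24 libraries, Plin1 in 20 and Retn in 16. Cfd, on the same list, was at 0 in only 1 library. It averaged 132 CPM in HF_TZD_C and 9.31 CPM in HF_C livers. HF_TZD_KO replicate 5 stood apart from the other HF_TZD_KO mice for Slc25a23, Slc25a36 and Slc25a37. Single libraries stood apart in 5 of 105 groups of values examined, near the rate that chance gives. For comparisons with HF_TZD_KO, the counts of members and of related genes are also given without replicate 5. So are the values of members that passed. Library totals ran from 19502150 to 28742638 reads.

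Upstream sequences are shown for the 3 members on which the comparisons turn: Slc25a10, which differed with the knockout label and with the drug, Slc25a1, which moved the other way, and Slc25a24, which had the highest fold change under the diet. Each is the 250 bases before the gene start in RefSeq, build GRCm38.p6, read 5′ to 3′ on the gene's strand. Capitals mark the letters of the E-box CACGTG, the CCAAT box and the GC box GGGCGG, on either strand.
Slc25a10 (chr11:120491587-120491836, plus strand): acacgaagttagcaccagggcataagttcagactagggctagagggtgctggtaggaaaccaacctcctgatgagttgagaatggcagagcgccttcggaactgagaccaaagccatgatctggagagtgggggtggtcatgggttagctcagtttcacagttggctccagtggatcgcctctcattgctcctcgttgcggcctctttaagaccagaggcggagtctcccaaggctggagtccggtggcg
Slc25a1 (chr16:17928220-17928469, minus strand): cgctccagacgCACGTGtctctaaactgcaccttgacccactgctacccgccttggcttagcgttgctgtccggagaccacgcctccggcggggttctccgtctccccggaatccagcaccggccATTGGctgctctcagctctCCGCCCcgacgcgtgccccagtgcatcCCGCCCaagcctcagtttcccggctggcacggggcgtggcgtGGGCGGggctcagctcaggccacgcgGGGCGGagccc
Slc25a24 (chr3:109122899-109123148, plus strand): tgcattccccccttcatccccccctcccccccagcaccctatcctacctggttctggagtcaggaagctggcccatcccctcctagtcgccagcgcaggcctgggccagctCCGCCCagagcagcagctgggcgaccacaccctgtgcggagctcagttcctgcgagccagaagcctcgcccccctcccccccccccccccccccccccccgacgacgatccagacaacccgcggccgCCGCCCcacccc
The Slc25a10 window held none of these letters. The Slc25a1 window held a CACGTG 239 bases before the start, a CCAAT box at 125 and GC boxes at 106, 79, 37 and 11. The Slc25a24 window held GC boxes at 139 and 12 and a long run of C. RefSeq promoters were found for 36 of the 46 members (46 promoters). CACGTG stood in 8 of those 46 (17.4%), against 6.02% of all 32851 promoters, and GGGCGG in 32 (69.6%), against 32.7%. CCAAT stood in 21 (45.7%), against 33.8% of all. AGGTCA, the core letters bound by many nuclear receptors, stood in 4 of 46 (8.7%), against 14% of all promoters, in Slc25a34, Slc25a39, Slc25a45 and Slc25a47. The repeat of AGGTCA spaced by 1 base, bound by PPAR with RXR, stood in 0 of 46, against 0.0335% of all. Only 11 of the 32851 promoters held this exact repeat, so the 0 cannot show that members lack such sites. These are counts of letters in a short window and show no binding.

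Per unit of length, a few carriers made up much of the family. Levels are in RPKM, reads scaled to gene length in kilobases and to library size, which allows genes to be compared. Slc25a47, a liver-enriched carrier, stood at 339 ± 12.6 RPKM in HF_TZD_KO livers, 412 ± 41.4 in HF_TZD_C, 377 ± 45.1 in HF_KO, 409 ± 16.3 in HF_C and 584 ± 62.5 in LF_C (SD). Slc25a5, the main ADP/ATP carrier of non-muscle tissue, stood at 341 ± 8.13, 374 ± 14.6, 337 ± 12.1, 344 ± 25.0 and 417 ± 20.9 RPKM in the same order of groups. Slc25a39, the glutathione carrier, stood between 205 RPKM in HF_TZD_KO and 233 RPKM in LF_C livers. These 3 genes together held 46.9% to 50.4% of the family's summed RPKM in every group on average. In HF_TZD_KO livers the means of Slc25a5 and Slc25a47 differed by less than their SD, whereas in LF_C livers Slc25a47 led.

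The next levels belonged to the carboxylate carriers. Slc25a10 (ENSMUSG00000025792, chromosome 11, 120491840 to 120499187), the dicarboxylate carrier that exchanges malate and succinate for phosphate, ranked 8th by RPKM in HF_TZD_KO livers, 4th in HF_TZD_C, 5th in HF_KO, 4th in HF_C and 5th in LF_C. Slc25a1 (ENSMUSG00000003528, chromosome 16, 17925211 to 17928219), the citrate carrier, ranked 4th, 5th, 4th, 5th and 4th in the same order. Of all members, 23 reached 10 RPKM in HF_C livers and 7 were under 1 RPKM. Slc25a2, a second ornithine carrier, had 89 reads over all 24 libraries, Slc25a31, the ADP/ATP carrier of testis, had 76, and Slc25a54 had 1, so these 3 did not pass the filter on low counts. The remaining 43 members entered every comparison.

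**Figure D1:**
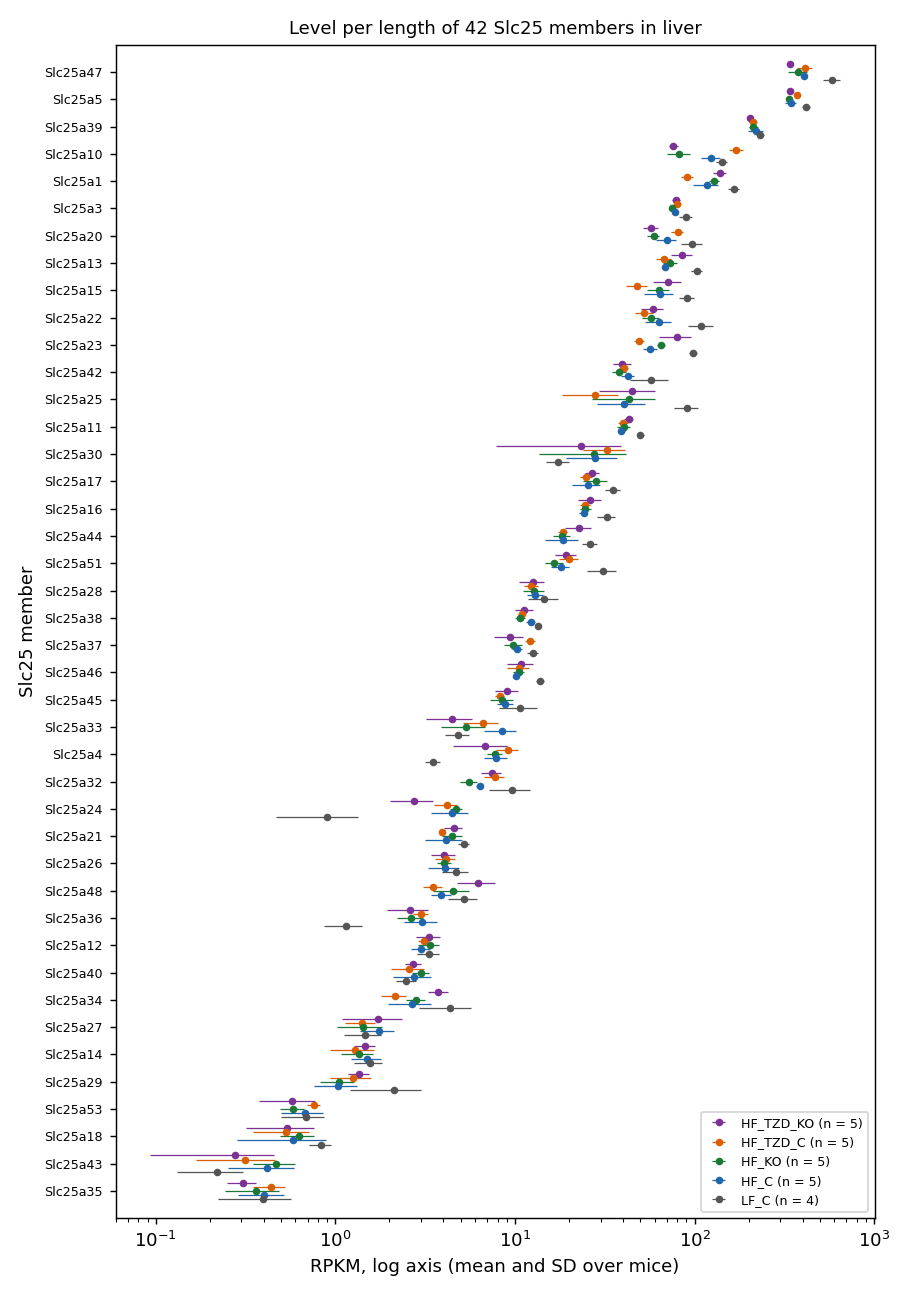
Mean RPKM on a log axis, with SD, for 42 of the members that entered the tests, ordered by HF_C; colours are the 5 groups. Slc25a47 and Slc25a5 lie at the top in every group, and Slc25a24 and Slc25a36 lie farther left in LF_C than in the groups on the HFCF diet.

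Summed over the family, expression was lower on the HFCF diet. The sum was 1890 ± 76.4 RPKM in HF_TZD_KO, 1980 ± 83.2 in HF_TZD_C, 1880 ± 88.7 in HF_KO, 1966 ± 117 in HF_C and 2594 ± 55.3 in LF_C livers (SD). The raw share of all reads, which uses no scaling, was 0.426% to 0.448% in HF_C libraries and 0.477% to 0.524% in LF_C libraries. In HF_TZD_KO, HF_TZD_C and HF_KO libraries it was 0.381% to 0.407%, 0.426% to 0.459% and 0.393% to 0.428%. The LF_C libraries lay above all others on both measures.

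The HFCF diet in control mice was the comparison in which most members moved. Of 43 tested members, 28 passed (edgeR quasi-likelihood test, Benjamini-Hochberg adjusted p under 0.05 over all genes), 5 higher and 23 lower in HF_C than in LF_C livers. That is 65.1% of the members, while 40.6% of all 14772 genes passed, 21.4% higher and 19.2% lower. The median log2 fold change was -0.34 over the members and -0.03 over all genes. In 20 of the 28 the groups did not overlap, a share of 71.4%, against 79.2% of the genes that passed. As a share of those tested, 46.5% of the members and 32.2% of all genes passed without overlap. With library totals and no scaling factor, 11 members passed, 5 higher and 6 lower, and the median of all genes lay at 0.24, so the balance between higher and lower members depends on the scaling. On that scaling the members' median was -0.08, with 5309 genes higher and 886 lower. The calls of Slc25a1, Slc25a3, Slc25a5, Slc25a11, Slc25a15, Slc25a16, Slc25a17, Slc25a20 and Slc25a29 were lost on it. So were those of Slc25a32, Slc25a34, Slc25a37, Slc25a42, Slc25a44, Slc25a46, Slc25a47 and Slc25a48.

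Among the ADP/ATP, ATP-Mg and phosphate carriers, all 6 tested members passed, 2 higher and 4 lower. Slc25a24, a calcium-regulated ATP-Mg/phosphate carrier, stood at 12.6, 12, 20.9, 16.3 and 14.6 CPM in HF_C livers, against 3.87, 4.79, 2.03 and 1.69 CPM in LF_C livers. All HF_C mice lay above all LF_C mice, by 2.28 on the log2 scale (SE 0.29, adjusted p = 1.1e-04). Its 2 relatives with the same transport role went the other way. Slc25a23 stood at 216, 202, 178, 173 and 184 CPM in HF_C livers, against 337, 326, 312 and 353 CPM in LF_C livers (log2 fold change -0.81, SE 0.08, adjusted p = 3.2e-05). Slc25a25 stood at 175, 144, 112, 92.5 and 195 CPM in HF_C livers, against 374, 261, 344 and 300 CPM in LF_C livers (log2 fold change -1.17, SE 0.20, adjusted p = 6.7e-04). Neither gene's groups overlapped. Per length, Slc25a23 exceeded Slc25a24 by a ratio of 13.4 ± 3.9 in HF_C and 132 ± 65.8 in LF_C livers (SD).

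The ADP/ATP carriers showed the same kind of split. Slc25a4, the form typical of heart and muscle, stood at 14.9, 12.9, 18.7, 15.2 and 13.9 CPM in HF_C livers, against 6.62, 7.56, 6.12 and 6.56 CPM in LF_C livers. It was higher in every HF_C mouse, by 1.16 on the log2 scale (SE 0.13, adjusted p = 5.5e-05). Slc25a5 stood at 429, 473, 395, 434 and 401 CPM in HF_C livers, against 491, 504, 521 and 551 CPM in LF_C livers (log2 fold change -0.29, SE 0.08, adjusted p = 0.0127). This call depended on the scaling: with library totals its value was -0.02 (adjusted p = 0.797), and with a replicate block the adjusted p was 0.0940. The ratio of Slc25a5 to Slc25a4 in RPKM was 44.7 ± 8.59 in HF_C and 120 ± 13.6 in LF_C livers (SD), and it did not overlap. Slc25a3, the phosphate carrier, stood at 319, 326, 298, 319 and 312 CPM in HF_C livers, against 353, 344, 342 and 405 CPM in LF_C livers. Its log2 difference was -0.21 (SE 0.08, adjusted p = 0.0489), but it missed the threshold whenever any 1 of the 9 libraries was left out (adjusted p up to 0.109), and with library totals its value was 0.06.

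Among the nucleotide and cofactor carriers, 8 of 11 passed, 2 higher and 6 lower. The 2 pyrimidine nucleotide carriers were those that were higher. Slc25a36 stood at 15, 12.6, 21.4, 14.7 and 15.6 CPM in HF_C livers, against 6.62, 7.34, 4.05 and 5.86 CPM in LF_C livers (log2 fold change 1.40, SE 0.19, adjusted p = 1.9e-04). Slc25a33 stood at 13.1, 20.7, 13.2, 15.3 and 17.5 CPM in HF_C livers, against 8.55, 10.8, 7.58 and 9.29 CPM in LF_C livers (log2 fold change 0.80, SE 0.16, adjusted p = 0.00205). The groups did not overlap for either gene. Lower members that supply cofactors included Slc25a51, the NAD+ carrier (-0.79), Slc25a32, the folate and FAD carrier (-0.61), Slc25a17 of the peroxisome (-0.48), and the coenzyme A carriers Slc25a16 and Slc25a42 (both -0.44), all log2 fold changes. Slc25a42 stood at 157, 172, 135, 160 and 155 CPM in HF_C livers, against 162, 199, 197 and 280 CPM in LF_C livers, overlapping between groups (adjusted p = 0.0201), and missed the threshold without HF_C replicate 3 (adjusted p = 0.0539). The glutathione carriers Slc25a39 (-0.10, adjusted p = 0.395) and Slc25a40 (0.13, adjusted p = 0.594) did not pass, nor did Slc25a26, the S-adenosylmethionine carrier (-0.22, adjusted p = 0.327).

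**Figure D2:**
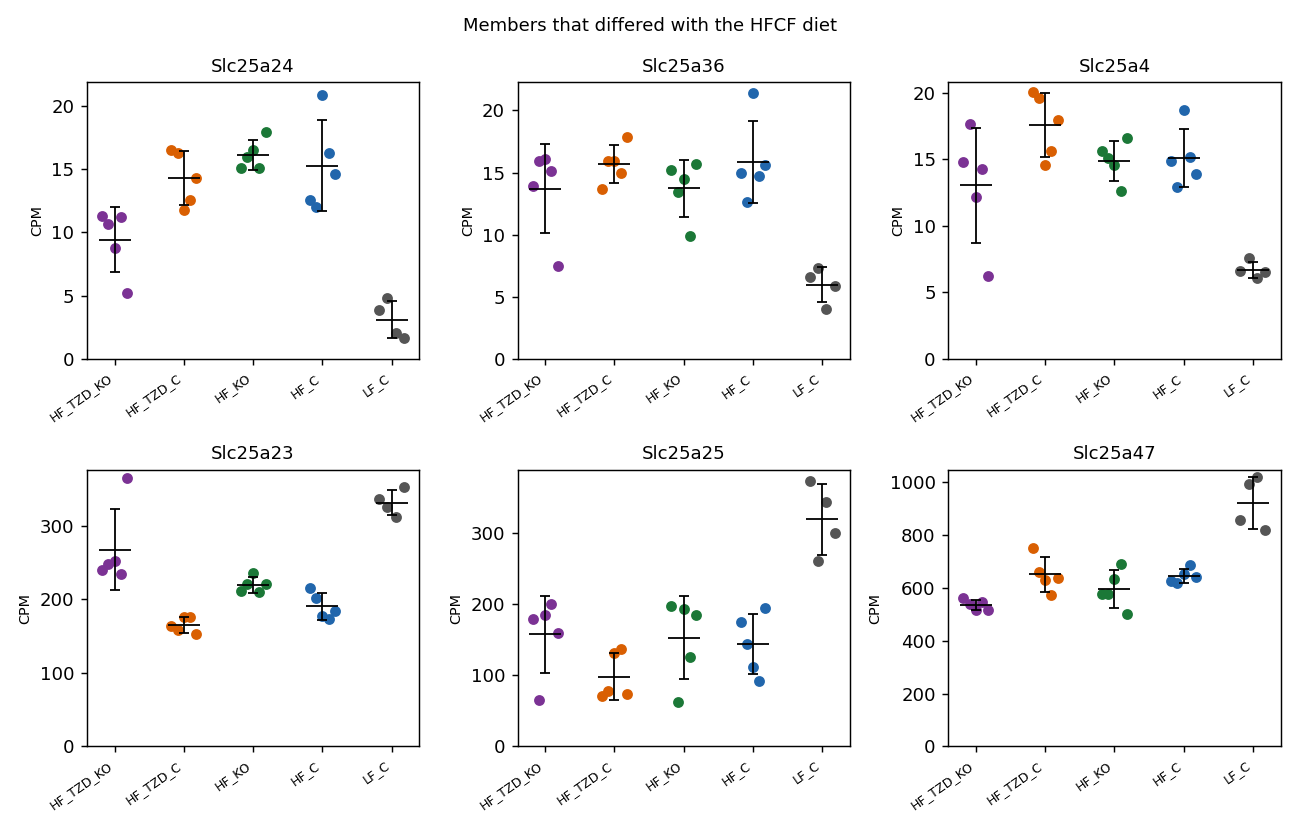
CPM per mouse (points) with mean and SD (bars) in the 5 groups for 6 members that passed in the diet comparison. The means of Slc25a24, Slc25a36 and Slc25a4 are lowest in LF_C and those of Slc25a23, Slc25a25 and Slc25a47 highest there; HF_TZD_KO replicate 5 lies at 6.21 CPM for Slc25a4 and 366 CPM for Slc25a23, in or above the range of LF_C.

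The amino acid carriers that passed were all lower, 5 of 8. Slc25a22, a glutamate carrier, stood at 181, 233, 165, 209 and 248 CPM in HF_C livers, against 341, 347, 302 and 434 CPM in LF_C livers (log2 fold change -0.79, SE 0.14, adjusted p = 7.3e-04). Slc25a13 (citrin), the aspartate-glutamate carrier of liver, stood at 215, 213, 205, 213 and 229 CPM in HF_C livers, against 296, 353, 324 and 317 CPM in LF_C livers (log2 fold change -0.60, SE 0.08, adjusted p = 1.2e-04). Slc25a15, the ornithine carrier of the urea cycle, stood at 200, 244, 169, 221 and 275 CPM in HF_C livers, against 289, 320, 293 and 354 CPM in LF_C livers (log2 fold change -0.51, SE 0.13, adjusted p = 0.00771). None of the 3 overlapped between groups. Slc25a29, a carrier of basic amino acids, stood at 1.84, 1.19, 2.32, 2.6 and 2.36 CPM in HF_C livers, against 3.67, 3.76, 2.51 and 6.71 CPM in LF_C livers (log2 fold change -1.02, adjusted p = 0.0171), and missed the threshold without LF_C replicate 4 (adjusted p = 0.0582). Slc25a44, a carrier of branched-chain amino acids, was at -0.51 on the log2 scale (adjusted p = 0.00868). Slc25a12, the aspartate-glutamate carrier of muscle and brain, did not pass (-0.16, adjusted p = 0.338), nor did the glycine carrier Slc25a38 (-0.13, adjusted p = 0.197).

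Of the carboxylate carriers, Slc25a1 (log2 fold change -0.51, SE 0.11, adjusted p = 0.00378) and Slc25a11, the 2-oxoglutarate carrier (-0.36, SE 0.07, adjusted p = 0.00142), were lower. Exons of Slc25a11 share 189 bases with Rnf167 on the other strand, and the libraries did not keep strand. Reads from those bases cannot be told apart, which may affect its count in either direction. Slc25a10 did not pass under the diet (-0.22, SE 0.10, adjusted p = 0.0973), nor did Slc25a21, the oxoadipate carrier (-0.34, adjusted p = 0.136). Slc25a20, which brings acylcarnitines to beta-oxidation, stood at 119, 147, 106, 134 and 119 CPM in HF_C livers, against 146, 179, 165 and 201 CPM in LF_C livers. Its groups touched, with 1 HF_C mouse above the lowest LF_C mouse (log2 fold change -0.48, SE 0.11, adjusted p = 0.00491). Slc25a37 (mitoferrin-1), which imports iron, was lower by a small amount (-0.30, SE 0.08, adjusted p = 0.00888), and Slc25a28 (mitoferrin-2) did not pass (-0.17, adjusted p = 0.302).

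Of the remaining members, Slc25a47 stood at 628, 619, 653, 686 and 641 CPM in HF_C livers, against 859, 992, 1021 and 819 CPM in LF_C livers, without overlap (log2 fold change -0.53, SE 0.09, adjusted p = 7.6e-04). Slc25a46, an outer membrane protein linked to mitochondrial fission, was lower (-0.46, adjusted p = 2.5e-04). Slc25a34 (-0.70, adjusted p = 0.0373) and Slc25a48 (-0.42, adjusted p = 0.0252) passed as well, but Slc25a34 missed the threshold in 5 of the 9 fits that left out a library (adjusted p up to 0.112) and Slc25a48 in 4 (up to 0.0757). Slc25a30, a relative of the uncoupling proteins, was higher (0.68, SE 0.20, adjusted p = 0.0186), but missed the threshold without LF_C replicate 1 (adjusted p = 0.0580) and with all 24 libraries in 1 fit (0.112). The other 2 such relatives, Slc25a14 (-0.05) and Slc25a27 (0.25), did not pass. Some members lie side by side in the genome. Slc25a29 and Slc25a47 neighbour each other on chromosome 12 and were both lower, whereas of Slc25a5 and Slc25a43 on chromosome X the first was lower and the second did not pass (0.93, adjusted p = 0.124).

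Other genes of carrier biology were set beside the members. Of the genes that import carrier proteins, 5 of 12 passed (41.7%), near the 40.6% of all genes that passed. Timm9 (-0.99, adjusted p = 3.0e-04), Timm10, Tomm70a and Timm8a1 were lower and Agk higher, and the list's median was -0.26. Of other mitochondrial carriers and pores, 9 of 13 passed, 7 lower, with Sfxn1 at -0.63 (adjusted p = 6.0e-05), and 2 higher. Those 2 were Sfxn3 at 1.89 (adjusted p = 3.8e-05) and Ucp2 at 1.21 (adjusted p = 1.6e-04). Ucp2 is an uncoupling protein that only the naming rule left out of the members. Of 13 enzymes that work with these carriers, 11 passed, all of them lower, with Asl at -1.46, Got1 at -1.20 and Arg1 at -1.04. Of 10 genes of mitochondrial mass, 6 were lower, with Ppargc1a at -0.66 (adjusted p = 0.00244). The shares that passed were 69.2% for other carriers and pores, 84.6% for the enzymes and 60% for mitochondrial mass. Over all genes 21.4% were higher and 19.2% lower.

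Cell type markers moved in the same comparison. Of the hepatocyte markers, 5 of 6 were lower and their sum was 44245 to 52687 CPM in HF_C and 74810 to 107532 CPM in LF_C libraries. Cps1 is on this list and also among the partner enzymes. Of the stellate cell and myofibroblast markers, 6 of 6 were higher (582 to 943 CPM in HF_C, 92.9 to 146 CPM in LF_C). The cholangiocyte markers (5 of 5 higher) summed to 548 to 1246 CPM in HF_C and 38.8 to 91.7 CPM in LF_C, and 4 of 5 macrophage markers were higher (230 to 434 CPM in HF_C, 153 to 309 CPM in LF_C). Of the erythroid markers, 3 of 4 tested were lower (85.3 to 157 CPM in HF_C, 167 to 239 CPM in LF_C), and of the lymphocyte markers 3 of 4 were higher (6.78 to 13.7 CPM in HF_C, 2.29 to 4.07 CPM in LF_C). Their part in the members' values was not tested.

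**Figure D3:**
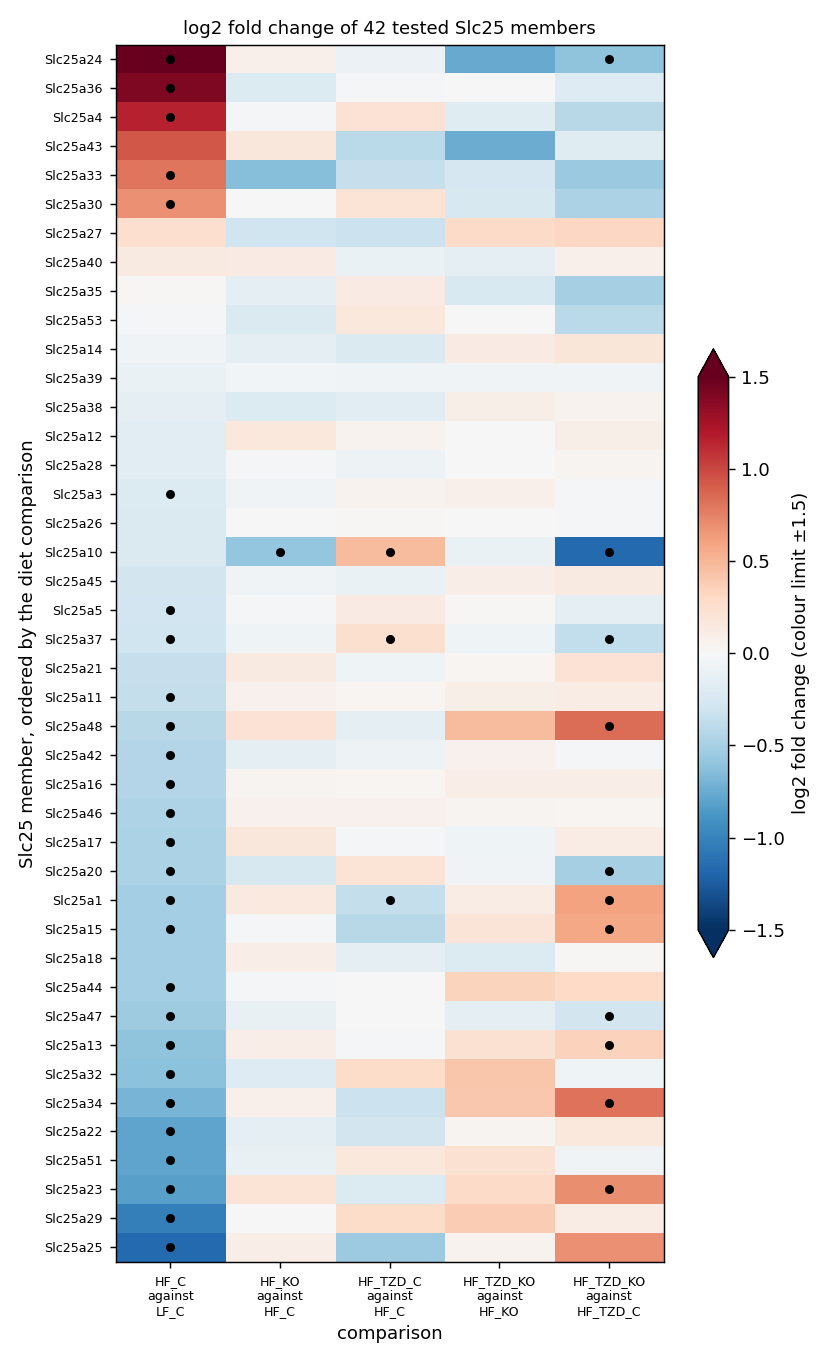
Log2 fold change of 42 tested members (rows, ordered by the diet comparison) in 5 comparisons (columns); red is higher and blue lower in the first-named group, and a dot marks an adjusted p under 0.05. Dots fill most of the first column (27 of the members drawn), and the row of Slc25a10 carries 3 dots in the columns of the knockout label and the drug.

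For the knockout label without the drug, Slc25a10 alone of the 43 members passed (HF_KO against HF_C), which is 2.33% of the members, while 1.02% of all genes passed, 0.485% higher and 0.539% lower. Slc25a10 stood at 162, 186, 176, 179 and 127 CPM in HF_KO livers, against 241, 289, 211, 269 and 236 CPM in HF_C livers. All mice labelled knockout lay below all control mice, where 0.970% of all genes passed without overlap (log2 fold change -0.58, SE 0.11, adjusted p = 0.0200). The call was lost without HF_C replicate 4 (adjusted p = 0.0658) and without HF_KO replicate 1 (0.0564), over a range of 0.0129 to 0.0658. The median was -0.02 over the members and 0.00 over all genes, and the 42 other members ran from -0.64 to 0.22. The lower end was Slc25a33 (adjusted p = 0.151). The medians of the lists were -0.03 for carrier import, 0.01 for other carriers and pores, 0.02 for partner enzymes, -0.02 for mitochondrial mass and 0.18 for hepatocyte markers. At an unadjusted p under 0.05, 6 members passed, and DESeq2 called 2. The adipocyte list was lower, at 0.0366 to 0.445 CPM in HF_KO and 2.92 to 20.8 CPM in HF_C livers, nearly all of it Cfd, its 1 tested gene (-5.77, adjusted p = 5.2e-04). Of 3 tested brown adipocyte markers 1 was lower, Cidea (-3.13, adjusted p = 0.00945), and that list summed to 14.9 to 50.2 CPM in HF_KO and 27.5 to 209 CPM in HF_C livers. Their part in the value of Slc25a10 was not tested.

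Rosiglitazone in control mice went with changes in 3 members. Slc25a10 and Slc25a37 were higher and Slc25a1 was lower in HF_TZD_C than in HF_C livers. That is 6.98% of the members, against 5.30% of all genes (2.69% higher, 2.61% lower), with a median of -0.03 over the members and -0.01 over all genes. The groups overlapped for none of the 3, and 4.14% of all genes passed without overlap. With library totals 4 members passed, 2 in each direction. Slc25a10 stood at 373, 309, 385, 332 and 332 CPM in HF_TZD_C livers, against 241, 289, 211, 269 and 236 CPM in HF_C livers. Every treated mouse lay above every untreated one (log2 fold change 0.47, SE 0.09, adjusted p = 0.00703), and the call held with each of the 10 libraries left out (adjusted p up to 0.0190).

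Slc25a1 stood at 160, 137, 162, 146 and 160 CPM in HF_TZD_C livers, against 165, 249, 183, 188 and 197 CPM in HF_C livers. The groups did not overlap, but the highest treated mouse (162) lay close to the lowest untreated one (165). Its log2 fold change was -0.36 (SE 0.10, adjusted p = 0.0479), and the call was lost in 8 of the 10 fits that left out a library (adjusted p up to 0.129). Slc25a37 stood at 77.5, 68.6, 74.5, 66.6 and 73.5 CPM in HF_TZD_C livers, against 63.3, 65.4, 61.4, 60.8 and 55.4 CPM in HF_C livers (log2 fold change 0.24, SE 0.06, adjusted p = 0.0359), and was lost in 7 of 10 (adjusted p up to 0.0866). Slc25a15 (-0.42, adjusted p = 0.0620) and Slc25a32 (0.28, adjusted p = 0.0935) came closest among members that did not pass.

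Beside them, Acly, which cleaves the citrate that Slc25a1 exports, was lower (-0.92, SE 0.25, adjusted p = 0.0457), as was Ass1 (-0.50, adjusted p = 0.0239). Crat (0.29, adjusted p = 0.0175), which makes short-chain acylcarnitines, and Sfxn1 (0.53, adjusted p = 5.0e-04), a serine carrier, were higher. The hepatocyte markers summed to 36970 to 46738 CPM in HF_TZD_C and 44245 to 52687 CPM in HF_C livers, and 2 of 6 were lower. The adipocyte list summed to 102 to 205 CPM in HF_TZD_C and 2.92 to 20.8 CPM in HF_C livers, nearly all of it Cfd (132 CPM in HF_TZD_C, 9.31 in HF_C), while Adipoq averaged 0.014 CPM in HF_TZD_C.

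In mice labelled knockout, no member passed for rosiglitazone (HF_TZD_KO against HF_KO), where 0.735% of all genes did (0.426% higher, 0.309% lower). That background of 107 genes was not stable: it was 0 in 6 of the 10 fits that left out a library, 223 without HF_TZD_KO replicate 1, 0 with a replicate block and 649 with DESeq2. The absence of members therefore cannot be read against it. The median was 0.04 over the members and 0.00 over all genes. At an unadjusted p under 0.05, 8 members passed, and DESeq2 called 2. Slc25a10 stood at 168, 153, 149, 145 and 156 CPM in HF_TZD_KO livers, against 162, 186, 176, 179 and 127 CPM in HF_KO livers, so the groups overlapped (log2 fold change -0.10, adjusted p = 0.681). Slc25a24 stood at 11.3, 10.7, 8.74, 11.2 and 5.23 CPM in HF_TZD_KO livers, against 15.1, 16, 16.5, 15.1 and 17.9 CPM in HF_KO livers. It missed the threshold (log2 fold change -0.76, adjusted p = 0.0599) although the groups did not overlap. Without HF_TZD_KO replicate 5, the lowest library, it passed (-0.61, adjusted p = 0.0299), and it passed with DESeq2 (adjusted p = 0.00245), over a range of 0.0299 to 0.142 when a library was left out. Of the partner enzymes, Cps1 (0.92, adjusted p = 0.0365) and Arg1 (0.57, adjusted p = 0.0373), both of the urea cycle, were higher. Ass1, Asl and Otc of the same cycle did not pass. Cps1 is also on the hepatocyte list and was the 1 of its 6 markers that was higher. That list summed to 72613 to 105647 CPM in HF_TZD_KO and 56414 to 64909 CPM in HF_KO livers. With HF_TZD_KO replicate 5 left out, Cps1 was at 0.76 (adjusted p = 0.0245) and Arg1 at 0.52 (adjusted p = 0.0332). Of the 6 hepatocyte markers, Cps1 and Alb (0.51, adjusted p = 0.0451) were then the 2 that were higher. Of the stellate cell markers, 2 of 6 were then lower, against 0 of 6 with all libraries. They were Col3a1 (-0.80, adjusted p = 0.0373) and Col1a1 (-0.65, adjusted p = 0.0408). Cfd, the 1 tested adipocyte marker, was higher with all libraries (3.78) and without replicate 5 (4.04, adjusted p = 0.0299). The part of these markers in the members' values was not tested.

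The knockout label under rosiglitazone moved 12 members, 7 higher and 5 lower in HF_TZD_KO than in HF_TZD_C livers. That is 27.9%, while 16.3% of all 14602 genes passed (8.53% higher, 7.81% lower), with a median of 0.04 over the members and 0.00 over all genes. In 10 of the 12 the groups did not overlap, a share of 83.3%, against 74.9% of the genes that passed. As a share of those tested, 23.3% of the members and 12.2% of all genes passed without overlap. Without HF_TZD_KO replicate 5 the same 12 passed, and over all libraries left out in turn it ran from 8 to 16. With library totals 16 passed, 6 higher and 10 lower, the median of all genes lay at -0.16, with 740 genes higher and 2916 lower.

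Slc25a10 had the smallest adjusted p among the members. Its HF_TZD_KO livers, at 145 to 168 CPM, lay below all HF_TZD_C livers, at 309 to 385 CPM (-1.17 on the log2 scale, SE 0.08, adjusted p = 2.1e-06), and every alternative kept the call (adjusted p up to 1.6e-05 with a library left out). Slc25a1 went the other way, at 203, 226, 236, 249 and 246 CPM in HF_TZD_KO livers, against 160, 137, 162, 146 and 160 CPM in HF_TZD_C livers (log2 fold change 0.60, SE 0.08, adjusted p = 1.9e-04). Slc25a20, the acylcarnitine carrier, followed Slc25a10 in direction, at 105, 91.7, 108, 91.2 and 112 CPM in HF_TZD_KO livers, against 134, 138, 161, 149 and 137 CPM in HF_TZD_C livers (log2 fold change -0.50, SE 0.08, adjusted p = 8.9e-04). None of the 3 overlapped between groups. The values without HF_TZD_KO replicate 5 were -1.18 for Slc25a10 (adjusted p = 1.4e-06), 0.58 for Slc25a1 (adjusted p = 2.5e-04) and -0.54 for Slc25a20 (adjusted p = 3.4e-04).

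The ratio of Slc25a1 to Slc25a10, in RPKM, sums up the pair, which was picked after its values had been seen. It was 1.46, 1.79, 1.91, 2.08 and 1.9 in HF_TZD_KO livers, 0.516, 0.534, 0.509, 0.53 and 0.583 in HF_TZD_C, 1.59, 1.29, 1.52, 1.59 and 1.98 in HF_KO, 0.83, 1.04, 1.04, 0.84 and 1 in HF_C, and 1.21, 0.993, 1.28 and 1.16 in LF_C livers. Citrate carrier RNA exceeded dicarboxylate carrier RNA in every mouse labelled knockout and stood at a little over 0.5 of it in every treated control mouse. No test is given for this ratio.

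**Figure D4:**
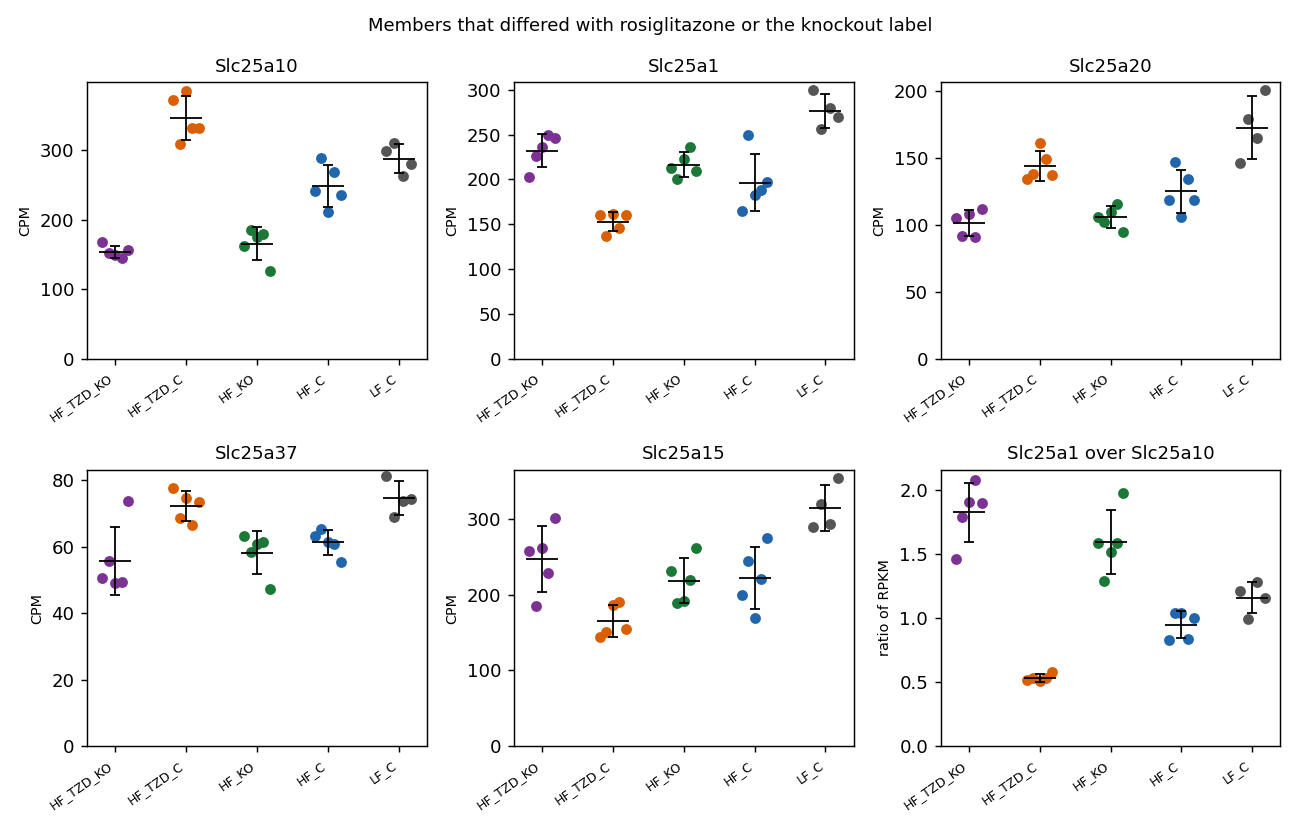
CPM per mouse (points) with mean and SD (bars) for 5 members, and the RPKM ratio of Slc25a1 to Slc25a10, in the 5 groups. For Slc25a10 the HF_TZD_C mice (309 to 385 CPM) lie above the HF_TZD_KO mice (145 to 168 CPM), and in the ratio panel that order is turned round.

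Among the amino acid carriers, Slc25a15 (0.58, SE 0.12, adjusted p = 0.00674) and Slc25a13 (0.34, SE 0.10, adjusted p = 0.0283) were the 2 of 8 that passed, both higher in HF_TZD_KO livers. Slc25a15 stood at 257, 185, 262, 228 and 301 CPM in HF_TZD_KO livers, against 144, 150, 186, 190 and 155 CPM in HF_TZD_C livers, overlapping by 1 mouse. Slc25a15 was at 0.49 (adjusted p = 0.00907) and Slc25a13 at 0.27 (adjusted p = 0.0486) without HF_TZD_KO replicate 5. Slc25a23 stood at 240, 248, 252, 234 and 366 CPM in HF_TZD_KO livers, against 164, 158, 176, 176 and 153 CPM in HF_TZD_C livers. Its log2 fold change was 0.70 (SE 0.11, adjusted p = 0.00119), and 0.55 (adjusted p = 7.0e-05) without HF_TZD_KO replicate 5, which held the 366. Slc25a24 was lower (-0.60, SE 0.19, adjusted p = 0.0479, and -0.45, adjusted p = 0.0298, without replicate 5), but lost the call in 5 of 10 fits that left out a library (adjusted p up to 0.116). Slc25a37 stood at 50.6, 55.6, 49.2, 49.5 and 73.6 CPM in HF_TZD_KO livers, against 77.5, 68.6, 74.5, 66.6 and 73.5 CPM in HF_TZD_C livers. Its log2 fold change was -0.37 (SE 0.10, adjusted p = 0.0283), and -0.50 (adjusted p = 2.8e-04) without replicate 5.

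Less abundant members were also higher in HF_TZD_KO livers. Slc25a48 stood at 18.2, 21.9, 16, 20 and 29.4 CPM in HF_TZD_KO livers, against 11.8, 11.2, 11.7, 14.1 and 10.2 CPM in HF_TZD_C livers (log2 fold change 0.84, SE 0.15, adjusted p = 0.00209). Slc25a34, whose substrate is not settled, stood at 8.04, 11.6, 10.3, 9.7 and 10.3 CPM in HF_TZD_KO livers, against 5.12, 4.44, 6.12, 6.07 and 6.79 CPM in HF_TZD_C livers (log2 fold change 0.81, SE 0.14, adjusted p = 0.00187). Neither overlapped. Without HF_TZD_KO replicate 5, Slc25a48 was at 0.68 (adjusted p = 0.00130), Slc25a34 at 0.79 (adjusted p = 0.00268) and Slc25a47 at -0.27 (adjusted p = 0.0416). With all libraries, Slc25a47 was lower by a small amount (-0.28, SE 0.08, adjusted p = 0.0347), and this call was lost in 6 of 10 fits that left out a library (adjusted p up to 0.0852), as were those of Slc25a37 in 7 (up to 0.0708) and Slc25a13 in 4 (up to 0.0802). Slc25a25 did not pass (0.69, adjusted p = 0.117), and its values spread from 64.6 to 200 CPM in HF_TZD_KO and from 70.2 to 137 CPM in HF_TZD_C livers.

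The partner enzymes of these carriers moved in the same comparison. Acly was higher by 1.97 (SE 0.25, adjusted p = 1.8e-04), together with Slc25a1. The urea cycle enzymes Ass1 (1.20, adjusted p = 1.0e-04), Cps1 (1.14, adjusted p = 9.1e-04), Asl (0.87, adjusted p = 1.3e-04) and Arg1 (0.63, adjusted p = 0.00133) were higher, together with Slc25a13 and Slc25a15. Otc, also of that cycle, did not pass (on average 346 CPM in HF_TZD_KO and 311 in HF_TZD_C livers), nor did Got1, Got2 and Mdh1. Crat (-0.44, adjusted p = 0.00277) and Mdh2 (-0.40, adjusted p = 0.00149) were lower, so that 7 of 13 partners passed. Of other carriers and pores, 5 of 14 passed, with Ucp3 (-3.49, SE 0.54, adjusted p = 8.4e-04) and Ucp2 (-0.69, adjusted p = 0.0381) lower. The import genes had a median of -0.02, and of 10 genes of mitochondrial mass 1 passed, Ppargc1a (0.53, adjusted p = 0.0122). Over all genes 16.3% passed. Without HF_TZD_KO replicate 5, a choice made for these lists after seeing the data, 7 of 13 partners and 4 of 14 other carriers and pores passed, with Acly at 2.00 (adjusted p = 1.4e-04) and Cps1 at 0.97 (adjusted p = 3.7e-04).

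Hepatocyte markers were 6 of 6 higher in this comparison, with a median log2 fold change of 0.95, and their sum was 72613 to 105647 CPM in HF_TZD_KO and 36970 to 46738 CPM in HF_TZD_C livers. These 6 include Cps1, given above as a partner enzyme. Stellate cell markers were lower in 3 of 6, at 184 to 526 CPM in HF_TZD_KO and 658 to 1154 CPM in HF_TZD_C livers, and 1 of 4 endothelial markers was lower (144 to 221 CPM in HF_TZD_KO, 209 to 268 CPM in HF_TZD_C). The adipocyte sum, again mostly Cfd, was 0.41 to 6.5 CPM in HF_TZD_KO and 102 to 205 CPM in HF_TZD_C livers, with Adipoq at 0 CPM on average in HF_TZD_KO and 0.014 in HF_TZD_C. The part of these markers in the members' values was not tested. Of the hepatocyte markers, 5 of 6 were higher without HF_TZD_KO replicate 5, with a median of 0.86. Stellate cell markers were then again lower in 3 of 6. Of the macrophage markers, 2 of 5 were then lower, against 0 of 5 with all libraries.

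The effect of rosiglitazone differed by knockout label for Slc25a10 alone among the members (difference of the effects, knockout-labelled minus control, -0.58 on the log2 scale, SE 0.14, adjusted p = 0.0269). This was 1 of 43 members (2.33%), while 2.45% of all genes passed that test (1.56% higher, 0.892% lower). Without HF_TZD_KO replicate 5 it was again -0.58 (adjusted p = 0.0349), with 3 members passing, Slc25a23 and Slc25a37 the others. It lost the call in 5 of the 20 fits that left out a library (adjusted p up to 0.0642). Slc25a1 (0.47, adjusted p = 0.0545), Slc25a23 (0.50, adjusted p = 0.0590) and Slc25a15 (0.61, adjusted p = 0.0918) missed the threshold, and DESeq2 called all 3 as well as Slc25a10. Of the partner enzymes, 4 of 13 passed with a higher drug effect in mice labelled knockout, Cps1 (1.03), Ass1 (0.98), Asl (0.66) and Arg1 (0.60). Without HF_TZD_KO replicate 5, 3 passed, and Asl missed the threshold (0.63, adjusted p = 0.0559). Of the hepatocyte markers, which include Cps1, 4 of 6 also passed with a higher drug effect in mice labelled knockout (median 0.73). Without HF_TZD_KO replicate 5 it was again 4 of 6 (median 0.65). The part of these markers in the values of partners and members was not tested.

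The comparisons of HF_C with LF_C and of HF_TZD_KO with HF_TZD_C share no mouse, and their values can be set side by side. Of 11 members that passed in both, 8 had opposite signs. The matching share over all genes that passed in both is not given, so this count has no background of its own. Among them, Slc25a1, Slc25a13, Slc25a15, Slc25a23, Slc25a34 and Slc25a48 were lower under the diet and higher in HF_TZD_KO livers, and Slc25a24 was the reverse. Slc25a20, Slc25a37 and Slc25a47 were lower in both. Over the 43 members, 29 (67.4%) had opposite signs, which is near the 70.6% of the 14436 genes tested in both comparisons. It was 27 members (62.8%) without HF_TZD_KO replicate 5, against 64.5% of 14536 genes. Slc25a10 was the exception in size, at -0.22 under the diet and -1.17 in HF_TZD_KO livers.

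**Figure D5:**
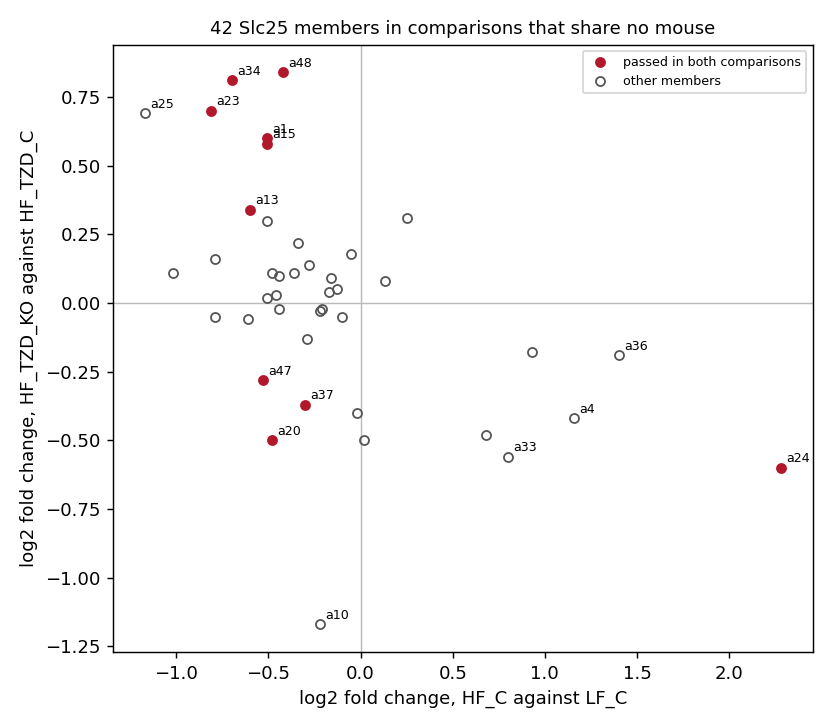
Log2 fold change of 42 members under the diet (x axis, HF_C against LF_C) and with the knockout label under rosiglitazone (y axis, HF_TZD_KO against HF_TZD_C); red points passed in both. Of the 10 red points, 6 lie at upper left and Slc25a24 at lower right, and Slc25a10 lies lowest, at -1.17.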

How the data were processed

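Whole-liver RNA of 24 mice was sequenced in libraries that kept no strand, per the labels. Per the submitters' processing notes, STAR 2.6.1 was the authors' aligner and HTSeq 0.6.1 their read counter, on build GRCm38 (mm10). The annotation release is not given in the sources used here. The authors deposited 5 tables of raw read counts per gene, joined here by gene identifier (0 counts differed between tables; 17482 cells of genes that a table left out were set to 0). The deposited gene length, another unit, in bases, gave RPKM.

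Each comparison was fitted with edgeR 4.0.16 in R 4.3.3 on its own libraries: filterByExpr (minimum count 10, total 15), TMM scaling, two-sided quasi-likelihood test, Benjamini-Hochberg adjustment over all genes at 0.05. The difference of the drug effects used the 20 HFCF libraries. Each SE was taken from the F statistic (size of the log2 fold change over the root of F). CPM and RPKM use TMM over 24 libraries. The labels do not say whether groups were housed or processed apart, so group differences cannot be told apart from any such differences. The tests set group differences against the spread between mice within groups. Code was tested on simulated data. Alternatives were RLE scaling, library totals, no filter, DESeq2 1.42.0, all libraries in 1 fit, a replicate block, and each library left out. Members that passed are named, except 1 that is counted but not reported here. Values per library are given for 14 chosen members and, per comparison, for up to 6 that passed with the largest changes and at least 2 CPM, 20 in all. Of the related lists, up to 3 genes that passed with the largest changes are named, and others (such as Crat, Mdh2, Asl and Arg1) were chosen after their values were seen. Role groups, lists of related genes and markers, and the members themselves, were chosen with earlier results of these data known. Where exons of genes on opposite strands overlap, reads cannot be told apart. Besides Slc25a11, Slc25a26 shares 144 bases with Lrig1, Slc25a25 shares 379 with Naif1 (6.03 CPM on average) and Slc25a18 shares 32 with Atp6v1e1. Slc25a10 shares 228 with Gm11788 (0.728 CPM on average) and Slc25a35 shares 1151 with Rangrf (0.0298 CPM). Others that share bases include Slc25a21, Slc25a23, Slc25a33 and Slc25a46, with genes at 0.306 CPM or less on average.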

Additional observations from a re-analysis of the deposited data

Results flagged for a closer look

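Single libraries stood apart in 5 of 105 groups of members' CPM values examined, where chance flags about 1 in 20. HF_TZD_KO replicate 5 accounted for 3 of them: Slc25a23 at 366 CPM (nearest other library 252), Slc25a36 at 7.49 CPM (nearest 13.9) and Slc25a37 at 73.6 CPM (nearest 55.6). HF_KO replicate 4 held Slc25a42, the coenzyme A carrier, at 161 CPM (nearest 137). LF_C replicate 4 held Slc25a48 at 22.4 CPM (nearest 16.4), and the diet call of Slc25a48 was lost without it (adjusted p = 0.0609).

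The rosiglitazone effect on Slc25a10 differed between the groups by knockout label, by -0.58 on the log2 scale in the test of the difference (adjusted p = 0.0269).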

How the results depend on the processing

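Across 4515 values of single members under the alternatives, 4375 kept their side of the threshold, 99 fell short of it and 40 passed it newly. A change of sign was counted only where a fit passed. By that count 1 value reversed, Slc25a3 under the diet (0.06 with library totals, adjusted p = 0.497). Counts of members that passed moved by over 1.5 times as follows. With library totals, 11 passed under the diet and 3 for the difference of the drug effects. Over all genes, library totals turned the balance to 56 higher and 118 lower (72 and 80 with TMM) for HF_KO against HF_C, to 51 and 169 (62 and 45) for HF_TZD_KO against HF_KO, and to 163 and 387 (239 and 137) for the difference. With DESeq2, 2 passed for HF_KO against HF_C, 2 for HF_TZD_KO against HF_KO and 4 for the difference. Without the filter, and with all 24 libraries in 1 fit, 1 passed for HF_TZD_KO against HF_KO. With libraries left out in turn, counts ran from 24 to 27 (diet), 0 to 1 (HF_KO against HF_C), 1 to 3 (HF_TZD_C against HF_C), 0 to 1 (HF_TZD_KO against HF_KO), 8 to 16 (HF_TZD_KO against HF_TZD_C) and 0 to 3 (difference). Counts over all genes were lowest without HF_C replicate 4 for HF_KO against HF_C (64, against 152 with all libraries) and without HF_TZD_C replicate 2 for HF_TZD_C against HF_C (497, against 792), HF_TZD_KO against HF_TZD_C (1569, against 2387) and the difference (191). The cause was not tested. Replicate numbers are shared between groups, but mice with the same number did not deviate together (correlations from -0.35 to 0.36). With a replicate block, 0 members passed for HF_TZD_C against HF_C (Slc25a10 0.48, adjusted p = 0.0558) and 0 for the difference (Slc25a10 -0.57, adjusted p = 0.0505). At 5 mice or fewer a group, members under 1 RPKM rest on few reads.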
